A study of Mus musculus with 3 samples.

Results

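Lin28b and the let-7 target genes Hmga2, Igf2bp1, Trim71, Nras, Arid3a, Lrig2 and Dicer1 were followed through RNA sequencing libraries of whole mouse lung. The genes were taken by name, through the RefSeq identifiers of the deposited table, and 7 of the 8 genes had a row. They account for 9 of 16383 transcript rows, because Arid3a has 3, and the levels of Dicer1 and Lin28a were not analysed here. There was 1 wild-type library (WT) and 2 libraries labelled Lin28a and Lin28b KO (DKO 1 and DKO 2), all from mice of the labelled C57BL/6J/mixed background. In the DKO lungs tamoxifen had switched on a Cre recombinase, NKX2.1creERT, described as specific to epithelium, which recombines the loxP-flanked exon 2. The labels give no age, sex or number of animals per library, and they do not say whether the WT mouse carried Cre or floxed alleles or received tamoxifen. Nothing states that DKO 1 and DKO 2 are different mice, so p-values measure the spread between these libraries, which may be technical.

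LIN28A and LIN28B are RNA-binding proteins of embryonic tissues that bind the precursors of let-7 microRNAs and block their maturation. Mature let-7 pairs through its seed with sites in the 3′ UTRs of mRNAs and lowers their level and translation, and LIN28B mRNA is itself a target, which closes a loop. Both LIN28 proteins also bind many mRNAs directly. The title of the study names a let-7-independent route. The levels of let-7 targets are given here as a description. Let-7 itself was not examined, and whether such a route acts was not tested.

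The let-7 sequences are shown first, because the seed they share defines what counts as a match. The targets themselves were taken by name. Of 11 mature let-7 family members in the RefSeq table for GRCm38.p6, 10 carry the same seed (bases 2 to 8, in capitals), and let-7j differs from them within it. Let-7a, the family's reference member, is set below beside members that differ from it outside the seed, followed by let-7j.
let-7a: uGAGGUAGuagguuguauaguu
let-7d: aGAGGUAGuagguugcauaguu
let-7g: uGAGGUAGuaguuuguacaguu
miR-98: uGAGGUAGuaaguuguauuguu
let-7j: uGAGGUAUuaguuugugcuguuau

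The reverse complement of the shared seed is CTACCTC, and an 8-base match, CTACCTCA, has an A opposite the first base of the microRNA. Both were searched in the sense strand of 3′ UTRs in GENCODE M21 (GRCm38), and every 8-base match is also counted as a 7-base match. The 7-base match occurred in 8.62% of 19283 genes with an annotated 3′ UTR and the 8-base match in 2.96%. Among the 8 genes, 7 held a 7-base match and 6 an 8-base match. Their 3′ UTRs are long, from 2977 bases in Hmga2 to 6337 in Igf2bp1, so each was set against UTRs of like length (within 20%). Among UTRs as long as that of Lin28b 24.2% held a match, and the share was 16.3% for Hmga2 and 32.8% for Igf2bp1. Lin28b, Hmga2, Igf2bp1 and Trim71 each held 4 matches, which 0.283%, 0.102%, 0.434% and 0.616% of UTRs of their length reached or passed. All 4 matches of Trim71 were 8-base matches, as were 3 of the 4 in Igf2bp1. Arid3a and Lrig2 each held 2, which 2.56% and 3.01% of UTRs of their length reached or passed. Nras held 1, as did 20.4% of UTRs of its length or more than 1. Dicer1, the nuclease that cuts let-7 precursors, held 0 in its 3′ UTR of 3851 bases and 4 in its coding sequence. A match is a description of these letters and does not show that let-7 acts there.

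The sites below are those of the deleted gene and of the most abundant target, and 1 of each other gene, with the 7-base match in capitals and its GRCm38 coordinates. All lie in the last exon, and all but those of Nras and Arid3a are on the minus strand.
Lin28b, 36 bases after the stop codon, chr10:45381023-45381029: cgggcgggaagtCTACCTCatgcaagca
Lin28b, 2410 bases after it, chr10:45378649-45378655: acttgttagtaaCTACCTCtgagtttga
Lin28b, 2582 bases after it, chr10:45378477-45378483: tacagcacatggCTACCTCccagctacc
Lin28b, 3998 bases after it, chr10:45377061-45377067: tgatggcaccgaCTACCTCttcaatcac
Hmga2, 21 bases after the stop codon, chr10:120364225-120364231: gacattcaatttCTACCTCagcatcagt
Hmga2, 1258 bases after it, chr10:120362988-120362994: cactcctcaataCTACCTCtgaatgcta
Hmga2, 1696 bases after it, chr10:120362550-120362556: atttgcaaggaaCTACCTCcacacttcc
Hmga2, 2554 bases after it, chr10:120361692-120361698: caaaacacactaCTACCTCttaagtccc
Igf2bp1, 1715 bases after the stop codon, chr11:95961779-95961785: gtgcgaagtaaaCTACCTCaaggtgtga
Trim71, 166 bases after the stop codon, chr9:114512473-114512479: attgcctaagtcCTACCTCagcttaaat
Nras, 187 bases after the stop codon, chr3:103064374-103064380: tcttcagaataaCTACCTCctcactcgg
Arid3a, 1974 bases after the stop codon, chr10:79953910-79953916: gcaagtttctttCTACCTCaggtctttt
Lrig2, 48 bases after the stop codon, chr3:104457711-104457717: gttagttatttaCTACCTCagaattgag

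**Figure D1:**
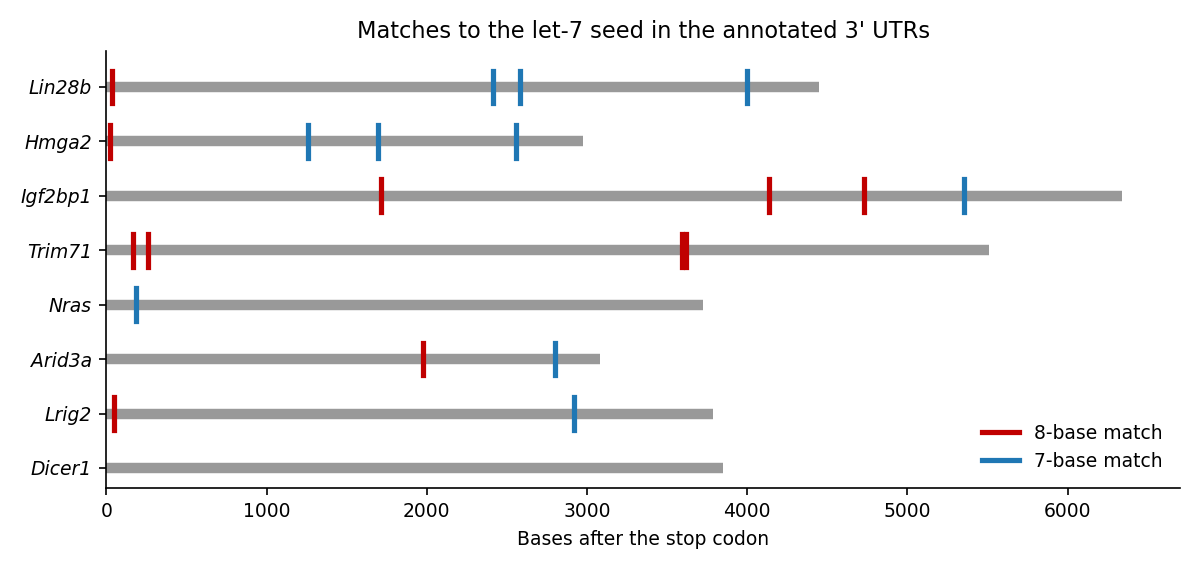
Annotated 3′ UTRs of the 8 genes, drawn as grey bars from the stop codon, with the x axis in bases after it. Red ticks are 8-base matches to the let-7 seed and blue ticks 7-base matches, and Lin28b, Hmga2 and Lrig2 each have an 8-base match within 48 bases of the stop codon.

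Values are RPKM as deposited (reads scaled to transcript length and to the size of the library), which allow levels to be compared between genes. The 3 libraries had an implied depth of 3.07e+07 to 4.87e+07 reads, estimated from the smallest steps of the values, and 68.0% of rows were listed at 0 in every library. A 0 can be a failed estimate where transcripts of a gene overlap. Of 19 lung epithelial markers 16 had a row. Nkx2-1, Sftpb, Scgb1a1 and Cldn18 were listed at 0 in all libraries, whereas Sftpc, a marker of distal lung epithelium, was present in WT. Of the 16, 7 were below WT in both DKO libraries and 1 above, or 6 and 1 without Sftpc. The summed RPKM of these markers was 417 for WT, 32.5 for DKO 1 and 38.4 for DKO 2, and 47.9, 24.9 and 38.3 without Sftpc. The 14 mesenchymal markers summed to 116, 174 and 106 RPKM in the same order. Those of white blood cells summed to 83.9, 472 and 238 RPKM. Of the 11 with a row, 3 were listed at 0 in every library, 6 were above WT in both DKO libraries and 0 below. Over all transcripts averaging at least 0.1 RPKM, 30.4% were above WT in both and 30.5% below. Liver markers summed to 7.55, 11.4 and 183 RPKM and heart muscle markers to 21.1, 13.7 and 81.8. The share of all RPKM held by red blood cell markers was 5.37% (WT), 7.25% (DKO 1) and 21.01% (DKO 2). The 4 Y-linked genes examined were listed at 0 in WT and summed to 22.3 and 8.11 RPKM in the DKO libraries, so sex and genotype cannot be told apart. In whole lung, fewer cells of a type and less RNA per cell also cannot be told apart.

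Lin28b, the deleted gene that could be followed, was low in all libraries. Its level was 0.449 RPKM for WT, 0.187 for DKO 1 and 0.590 for DKO 2, from about 118, 31 and 109 reads (NM_001031772, 5402 bases, chr10:45376620-45470201, minus strand). The library labelled DKO 1 was thus the lowest and the library labelled DKO 2 the highest, with WT between them. The ratio to WT was 0.417 in DKO 1 (95% exact binomial interval 0.271 to 0.624, counting error only) and 1.31 in DKO 2 (1.004 to 1.72). DKO 2 was 3.15-fold above DKO 1 (2.10 to 4.86). The libraries of 1 genotype therefore differed more from each other than either did from WT, and the level in DKO 2 was not below that in WT. With each library brought to the same total (TPM), WT and DKO 2 were nearly equal at 1.19 and 1.21, and DKO 1 remained the lowest at 0.472. The annotated exon 2 of Lin28b spans chr10:45469037-45469218, and its 182 bases are 3.37% of the transcript, whereas exon 5, with the whole 3′ UTR, is 89.1%. Reads of exon 2 alone were not examined. How far a level over the whole transcript and all lung cells reads the deletion was not tested.

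Trim71, a ubiquitin ligase and RNA-binding protein of early embryos and a classical let-7 target, was listed at 0 in WT. It had 0.1005 RPKM in DKO 1 and 0.0788 in DKO 2, from about 29 and 25 reads (NM_001042503). Both DKO libraries were above WT at a low level, where 3 reads in WT would have given 0.0066 RPKM. They differed from each other within counting error (ratio of DKO 2 to DKO 1 0.785, 0.434 to 1.37). No fold is given against 0.

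Hmga2, a chromatin-binding protein of fetal tissue, was the most abundant of these genes in every library. WT held 34.0 RPKM, DKO 1 held 18.3 and DKO 2 held 20.8, from about 6145, 2077 and 2637 reads (NM_010441). WT was the highest and the DKO libraries lay close together. The ratio to WT was 0.537 in DKO 1 (95% counting interval 0.510 to 0.564) and 0.611 in DKO 2 (0.583 to 0.639). The fitted log2 difference was −0.77 (SE 0.74), which did not pass the test given below.

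Igf2bp1, an RNA-binding protein of embryonic tissue that stabilises growth-related mRNAs, measured 2.39 RPKM for WT, against 2.06 for DKO 1 and 2.69 for DKO 2. WT lay between the DKO libraries. The ratios to WT were 0.863 (0.775 to 0.960) in DKO 1 and 1.12 (1.02 to 1.24) in DKO 2, so both departed from WT beyond counting error, in opposite directions. With TPM it measured 6.35, 5.20 and 5.49, so both DKO libraries were then below WT.

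Nras, a small GTPase of growth factor signalling, measured 8.71 RPKM for WT, against 7.67 for DKO 1 and 10.98 for DKO 2. It showed the order of Lin28b and Igf2bp1, with DKO 1 lowest and DKO 2 highest. The ratios to WT were 0.881 (0.816 to 0.951) in DKO 1 and 1.26 (1.18 to 1.35) in DKO 2.

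Lrig2, a transmembrane regulator of growth factor receptors, measured 0.448 RPKM for WT, against 0.463 for DKO 1 and 2.15 for DKO 2. DKO 1 differed from WT by less than counting error (ratio 1.03, 0.797 to 1.34), and DKO 2 stood 4.80-fold above WT (3.999 to 5.77). Its place above WT in both libraries thus rests on DKO 2.

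Arid3a, a DNA-binding protein of the ARID family, was listed at 0 in WT and DKO 2 for all 3 of its transcripts, and DKO 1 had 0.00626 RPKM for 1 of them, about 1 read. Its RefSeq transcripts overlap, so these zeros do not show that the gene was silent.

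**Figure D2:**
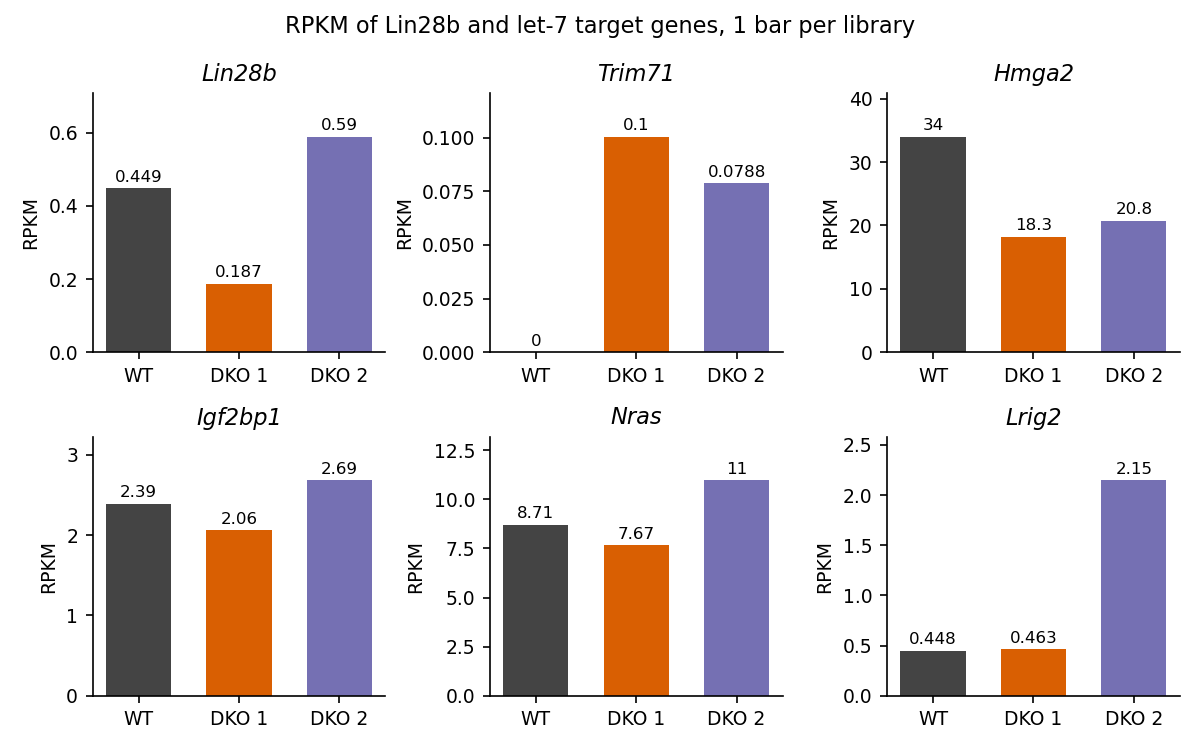
RPKM of 6 of the genes in each library, 1 bar per library, with a separate y axis from 0 for each gene. Hmga2 is highest in WT, Lrig2 stands out in DKO 2 at 2.15 RPKM, and Lin28b, Igf2bp1 and Nras have WT between the DKO libraries.

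By level, Hmga2 (18.3 to 34.0 RPKM) and Nras (7.67 to 10.98) did not overlap across the libraries, nor did Nras and Igf2bp1 (2.06 to 2.69). Igf2bp1 and Lrig2 (0.448 to 2.15) overlapped, as did Lrig2 and Lin28b (0.187 to 0.590), so these neighbours in the order were not separated. In WT, Lin28b stood at percentile 39.7 of transcripts above 0 and Hmga2 at percentile 91.5.

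**Figure D3:**
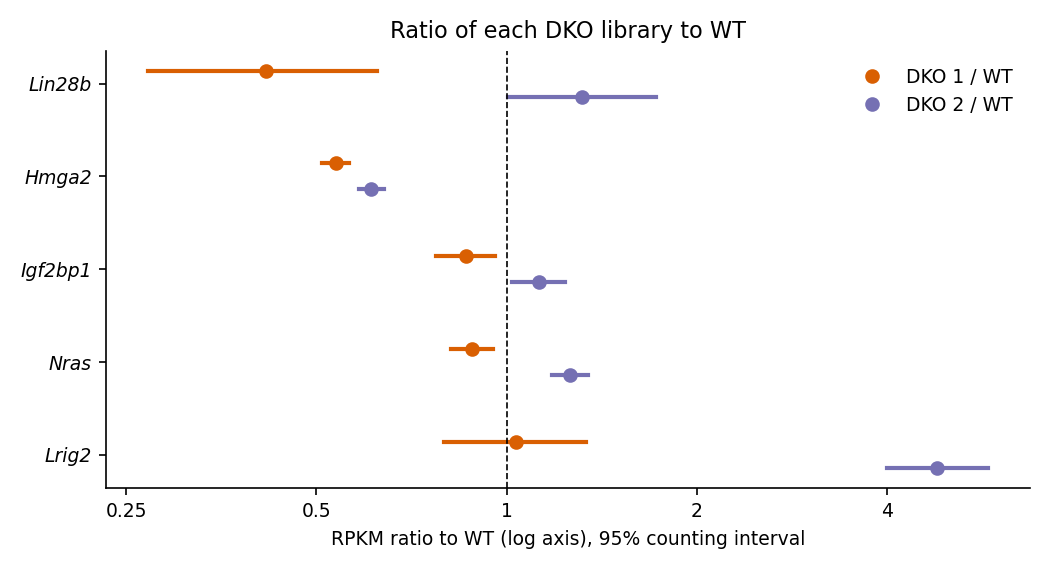
Ratio of the RPKM of each DKO library to WT for 5 genes, on a log axis, with lines for the 95% exact binomial interval from approximate reads (counting error only). The ratios of Hmga2 lie below 1 in both DKO libraries, at 0.537 and 0.611, and those of Lin28b, Igf2bp1 and Nras lie on either side of it.

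The comparison of DKO with WT was tested over every transcript whose mean reached 1 RPKM, on log2(RPKM + 1), with limma (two-sided, Benjamini-Hochberg adjusted p under 0.05). Hmga2, Nras, Igf2bp1 and Lrig2 reached that level. Of these 4, 0 passed limma and 0 had an unadjusted p under 0.05, beside 2 of 2066 tested transcripts (0.0968%) that passed and 66 with an unadjusted p under 0.05. The limma adjusted p was 0.999 for each of the 4, and over the alternatives it lay between 0.922 and 0.999. The 95% intervals of the log2 differences were −2.39 to 0.84 for Hmga2, −1.48 to 1.45 for Igf2bp1, −1.41 to 1.56 for Nras and −1.36 to 2.49 for Lrig2. On this scale a log2 difference of 1 in either direction lay within the interval of each gene, except a rise of that size for Hmga2. Without a filter on low values Lin28b had a log2 difference of −0.08 (SE 0.32, limma adjusted p = 0.953, between 0.875 and 0.991 over 6 alternatives). In the same fit Trim71 had a log2 difference of 0.12 (SE 0.03, limma adjusted p = 0.922, between 0.859 and 0.991 over 6 alternatives). The spread came from the 2 DKO libraries alone (1 residual degree of freedom), and WT was assumed to vary like them.

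Counts of direction were read against all 3701 transcripts whose mean reached 0.1 RPKM. Of the 5 genes above that level, Hmga2 alone was below WT in both DKO libraries, beside 30.5% of all transcripts. Lrig2 alone was above WT in both, beside 30.4%. Lin28b, Igf2bp1 and Nras, 3 of 5, shared the order DKO 1 below WT below DKO 2, which 15.5% of all transcripts had. All 5 were higher in DKO 2 than in DKO 1, beside 47.2% of all transcripts. Scaling moved these counts. Expressing the values as TPM shifted the median log2 difference of all tested transcripts to −0.22. On that scale 6 of the genes had a mean of at least 0.1 TPM, Trim71 being the addition. Of these 6, Hmga2, Igf2bp1 and Nras, 3 in all, were below WT in both, beside 37.6% of all transcripts at that level. Trim71 alone was above WT in both, listed at 0 in WT with 0.254 and 0.161 TPM in the DKO libraries, beside 23.8%. DKO 2 was above DKO 1 in 4 of the 6, beside 36.4%, and Hmga2 and Trim71 were the exceptions. Nras then measured 23.1, 19.4 and 22.5 TPM. Lrig2 then measured 1.19, 1.17 and 4.40 TPM and was no longer above WT in both. Hmga2 had 90.4, 46.1 and 42.5 TPM and kept its place below WT. Red blood cell markers, given above, enter that total and were highest in DKO 2. Their part in these counts was not tested.

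**Figure D4:**
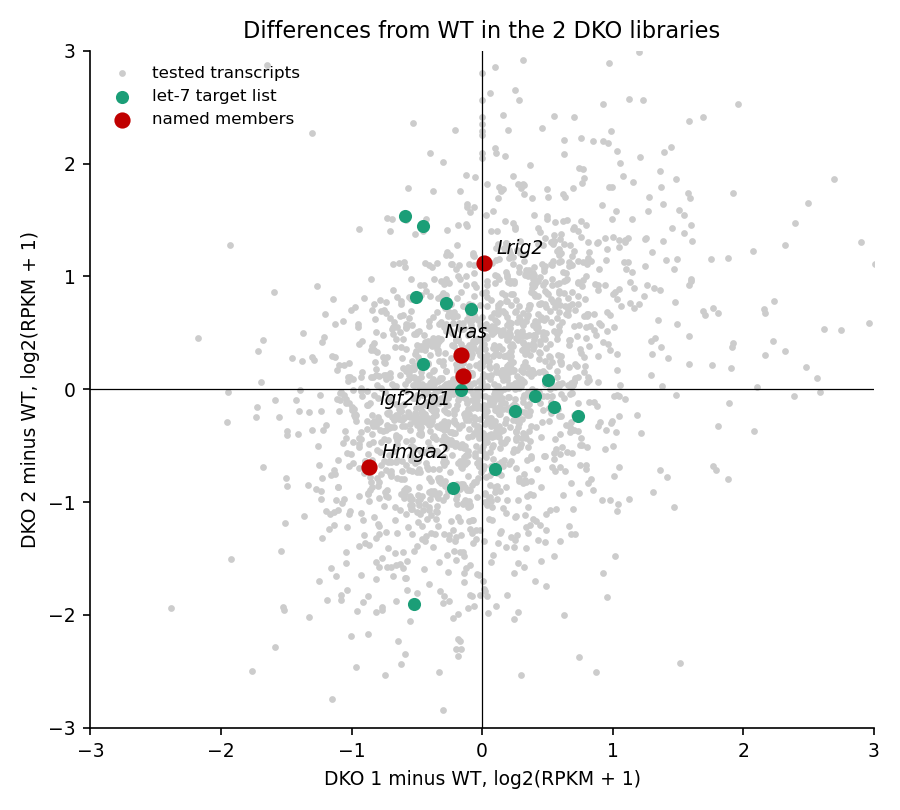
Difference from WT on the log2(RPKM + 1) scale in DKO 1 (x axis) and DKO 2 (y axis), with 1 point per tested transcript, the let-7 target list in green and the 4 tested genes named here in red. Hmga2 lies at −0.86 and −0.69, and Lrig2 at 0.02 and 1.12. The axes end at 3 on either side, which leaves out 42 transcripts.

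A wider list of 74 genes described as let-7 targets, with the genes above among them, was examined. In 55 of these the 3′ UTR held a 7-base match. A row was present for 48, and 19 reached the level for testing, of which 0 passed limma. Their median log2 difference was 0.16, beside −0.01 over all tested transcripts, and with TPM the same 19 had −0.05, beside −0.22 over the same 2066. Filtering anew at 1 TPM admitted 23 of the list, with a median of −0.17. The median difference from WT was −0.16 in DKO 1 and 0.09 in DKO 2, so the DKO libraries lay on either side of WT, whereas with TPM both medians of the 19 lay below it (−0.24 and −0.28). Of the 19, 4 were below WT in both libraries (21.1%, beside 31% of all tested transcripts) and 2 above (10.5%, beside 32.1%). The order DKO 1 below WT below DKO 2 was found in 8 of 19 (42.1%, beside 19.4%). Over all tested transcripts with a 7-base match it was found in 27 of 135 (20%), beside 19.7% of those without a match. The 8 of the list include Nras and Igf2bp1, already counted above. Rrm2, a subunit of ribonucleotide reductase, was another, with 22.6, 18.5 and 39.0 RPKM (WT, DKO 1, DKO 2). So was Cdc25a, a phosphatase that drives cell cycle entry, with 3.29, 2.01 and 6.59. Rrm2 and Cdc25a were chosen after their values were seen. With TPM Nras and Igf2bp1 lost this order, being below WT in both DKO libraries. The order was not counted anew over the list on that scale. Markers of dividing cells summed to 326, 342 and 326 RPKM in the same order of libraries, of which Pcna made up 216, 222 and 220. Of the 7 markers, 3 were below WT in both DKO libraries (Mki67, with 14.3, 7.87 and 5.32 RPKM, Top2a and Aurkb) and 4 above (Cdk1, Mcm2, Mcm5 and Pcna). The shares of all tested transcripts were 31% below and 32.1% above. The part of dividing cells in the values of the list was not tested.

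Besides Hmga2, the list members furthest from WT on the same side in both libraries were Thbs1, Igf1r and Col1a2. Thbs1, a matrix glycoprotein, measured 10.1 RPKM for WT, 6.76 for DKO 1 and 1.97 for DKO 2. Igf1r, the receptor of insulin-like growth factors, had 1.75, 1.37 and 0.498 RPKM. Col1a2, a collagen chain of mesenchyme, was above WT with 21.3, 30.5 and 22.6 RPKM, but with TPM WT lay between the DKO libraries (56.5, 77.04 and 46.2 TPM). Each had a limma adjusted p of 0.999. For Thbs1 and Igf1r the larger part of the difference was in DKO 2, whereas the DKO libraries were close together for Hmga2.

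A list of genes that make, trim, degrade, act with or regulate microRNAs held 30 symbols, with Khsrp entered also under its alias Ksrp. Lin28b and Trim71 were among them. A row was present for 14 genes, and 5 were tested. Of these 5, 0 passed limma, 3 were below WT in both DKO libraries and 1 above, beside 31% and 32.1% of all tested transcripts. The median log2 difference of the 5 was −0.64 (−0.43 in DKO 1 and −0.96 in DKO 2), beside −0.01 over all tested transcripts. Ddx5, an RNA helicase of the Drosha complex, measured 77.9 RPKM for WT, 51.1 for DKO 1 and 39.5 for DKO 2. Prkra, a partner of Dicer, had 38.5, 28.3 and 15.0 RPKM, and Xrn2, a nuclear exonuclease, had 8.87, 7.0 and 4.01. In these 3 genes DKO 2 was the lowest, the reverse of Lin28b, Igf2bp1 and Nras. Khsrp, which binds let-7 precursors and aids their processing, was slightly above WT, with 0.935, 1.003 and 1.24 RPKM. Each of these 4 kept its side of WT with TPM and with median scaling, and 4 further genes of the list were listed at 0 in every library.

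Of 19 mRNAs that LIN28 proteins are reported to bind, 11 had a row and 5 were tested, with a median log2 difference of −0.01, the same as over all tested transcripts. Of these 5, 0 passed limma, 1 was below WT in both DKO libraries and 2 above, beside 31% and 32.1% of all tested transcripts. Cdk4, a kinase of G1 phase, was above WT in both libraries with 121, 169 and 222 RPKM, as was the mitotic kinase Cdk1 with 46.9, 66.4 and 61.0, although with TPM Cdk1 in DKO 2 equalled WT to 3 digits. Ccna2, a cyclin of S phase, was slightly below with 18.0, 16.7 and 15.3 RPKM.

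The seed match was also read over the whole table, which does not depend on a list of known targets. Of 1973 tested transcripts with an annotated 3′ UTR, 135 held a 7-base match. Their median log2 difference was 0.06 (0.02 in DKO 1 and 0.11 in DKO 2), beside −0.02 in the 1838 transcripts without a match (−0.02 and 0.04). The quartiles were −0.32 and 0.38 with a match and −0.43 and 0.44 without. With TPM the medians of the same transcripts were −0.13 with a match and −0.23 without. The 49 transcripts with an 8-base match had a median of 0.12, and the 18 with 2 or more 7-base matches, Hmga2, Igf2bp1 and Lrig2 among them, had −0.19. With TPM these same 18 had −0.43 and the 49 had −0.09. When transcripts were filtered anew at 1 TPM, 24 held 2 or more matches, with a median of −0.67. Of the 135, 38 were below WT in both DKO libraries (28.1%) and 45 above (33.3%), and 0 passed limma. Without a match the shares were similar, at 31.3% below and 31.9% above. These medians are a description and carry no test.

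**Figure D5:**
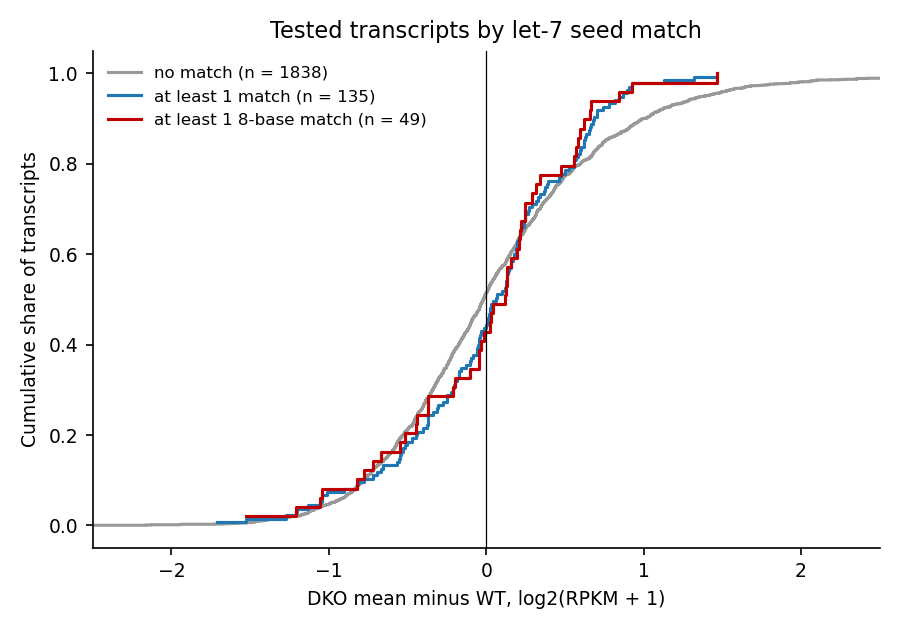
Cumulative share of tested transcripts against the log2(RPKM + 1) difference between the DKO mean and WT, for transcripts without a let-7 seed match, with a 7-base match and with an 8-base match. The curves cross near the centre, with medians of −0.02, 0.06 and 0.12, and the x axis ends at 2.5 on either side.

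The genes with the pattern most like that of Lin28b over the 3 libraries were Timm10, Scarb2 and Fxr2, and those most like Hmga2 were Armcx4, Rnf4 and Rps6. Likeness was the distance between the pairs of log2(RPKM + 0.1) differences from WT. It was taken among 2705 named transcripts averaging 0.3 RPKM or more and above 0 in every library. Predicted genes with Gm or Rik names were left out. Timm10 measured 124, 64.0 and 164 RPKM (distance 0.0736 from Lin28b), and Armcx4 had 2.80, 1.41 and 1.71 RPKM (distance 0.055 from Hmga2). Within a distance of 0.2 there were 18 transcripts for Lin28b and 25 for Hmga2.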

How the data were processed

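Per the labels, the input was Trizol-extracted total RNA and the kit SMARTer Ultra Low Input. The submitters' processing notes name cutadapt, TopHat2, HTSeq, edgeR and build mm10. Their versions, settings, annotation and use of strand were not given in the sources used here. As for units, the deposited values are named RPKM by the authors, 1 per RefSeq transcript and library, and the read total used for scaling is not stated. Names came from RefSeq (GRCm38.p6, 16151 rows) and GENCODE M21 (a further 77), leaving 155 rows unnamed. Exons of Hmga2, Igf2bp1 and Trim71 overlap antisense or microRNA genes by at most 140 bases, which could share reads.

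The worth of 1 read was the commonest low value of RPKM times transcript length. Of values up to 100 reads, 43.9% to 45.7% lay within 0.05 of a whole read, so reads are approximate and served for intervals. Differences were fitted with limma 3.58.1 under R 4.3.3 (trended moderation, prior of 11.2 degrees of freedom, pseudocount 1). The fit was run on simulated data with larger changes than the fitted differences of these genes, so its power for them was not assessed. Rows at 0 in every library entered no fit, which left 5245 without the filter. The genes and lists were chosen with earlier results of these data known. Named beyond the 8 genes were up to 4 of each list, by the smaller of their differences from WT, and the 3 most like Lin28b and Hmga2. Alternatives were pseudocounts of 0.1 and 5, no filter, a filter at 5 RPKM, TPM, median scaling, quantile normalization, moderation without a trend, 8-base matches and leaving out each DKO library. The alternatives for seed matches, TPM over the same transcripts, list subsets, counts without a DKO library and single genes without a trend, and the order of the libraries, were chosen after seeing the data. Leaving out a DKO library leaves 1 against 1, a value with no test.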

Additional observations from a re-analysis of the deposited data

How the results depend on the processing

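With 1 WT and 2 DKO libraries, the number of libraries limits every test. Depth limits Trim71, Lin28b in DKO 1 and Arid3a, which rest on 31 reads or fewer. The number of transcripts past limma was 2, and became 13 with a pseudocount of 0.1, 1 with a pseudocount of 5, 10 with a filter at 5 RPKM, 12 with median scaling, and 0 without a filter, with quantile normalization or with TPM. None of the let-7 targets named by the rule was among them under these alternatives or without a trend, where the count was 3. The count below WT in both DKO libraries, 1 as deposited, was 3 with TPM. It was 1 (Hmga2) when DKO 1 was left out and 4 (Lin28b, Hmga2, Igf2bp1 and Nras) when DKO 2 was left out. The count above WT in both fell from 1 to 0 with median scaling. Nras turned from 0.07 to −0.14 with TPM, and Lin28b, Igf2bp1 and Nras each changed sign between the DKO libraries. Hmga2 was below WT under all 10 alternatives. The let-7 target median of 0.16 was −0.17 with TPM (−0.055 over the same transcripts), 0.0045 without a filter, 0.046 with quantile normalization, 0.071 with the 5 RPKM filter or without collagen genes, and 0.085 and −0.163 when DKO 1 or DKO 2 was left out. The microRNA machinery median of −0.64 was −0.23 without a filter, where genes below 1 RPKM enter. No paired analysis was possible because the WT label carries no replicate number. Where no cause is given, the cause was not tested.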
